A study of Mus musculus with 12 samples.

Results

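The TGF-β response of mouse mesangial cells (MMC) that lack lncMGC was examined across all expressed genes. lncMGC is a long non-coding RNA that hosts a cluster of microRNAs. The comparison uses the 6 RNA-seq libraries of lncMGC-KO cells among the 12 of the series, taken by their genotype and treatment labels: 3 of serum-depleted KO cells (KO-SD) and 3 of KO cells given TGF-β at 10 ng/ml for 24 h (KO-TGF). The other 6 libraries are wild-type cells under the same conditions (WT-SD and WT-TGF, 3 each). They enter the expression limit and the joint fit behind each p-value, and serve to test where the KO response differs. The knockout is the KO5 line, homozygous for a deletion that Cas9 with paired guides made around the transcription start site of lncMGC in C57BL/6J embryos, and KO-SD and KO-TGF both carry it. The cells are primary MMC grown from pooled glomeruli, and the knockout is thus cells of a single line. The labels give neither the number nor the age of the mice, nor whether the 3 libraries of a group came from separate cultures. The p-values then measure the spread between these libraries, which may be technical. No counts for lncMGC itself were analysed here, and so the genotype could not be checked on the deleted gene, and KO refers to the libraries as labelled.

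Mesangial cells are contractile, pericyte-like cells that hold the capillary loops of the glomerulus together and secrete its mesangial matrix. TGF-β binds a receptor kinase pair that phosphorylates SMAD2 and SMAD3, which enter the nucleus with SMAD4 and act on target genes. In kidney cells it is the best-known driver of matrix deposition, it turns on the contractile programme of myofibroblasts, and in many cell types it halts the cell cycle.

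The 6 KO libraries held between 19898050 and 21180806 counts on genes. Within both groups every pair of libraries was further apart than counting noise. KO-SD replicate 1 stood somewhat apart from KO-SD replicates 2 and 3, at a chi-square statistic of 5.41 and 5.10 per gene-wise degree of freedom. Results that depend on it are named. Reads outside annotated exons were 12.7% to 13.4% in KO-SD and 10.3% to 10.9% in KO-TGF, and the 10 genes with most counts took 7.84% to 8.41% and 10.2% to 10.7%. The floor of detection, set at 3 counts, was 0.138 to 0.145 CPM (counts per 1000000 counts of library size, with library sizes scaled by TMM) in KO-SD and 0.158 to 0.161 CPM in KO-TGF. Intervals and floors cover counting error only. Mesangial markers were present at 6550 to 6787 CPM in sum in KO-SD and 12730 to 12830 CPM in KO-TGF, with Acta2 highest in both groups and Pdgfrb between 297 and 364 CPM. Most of this sum came from Acta2, Tagln and Akap12, at 3200 to 3320, 1290 to 1340 and 1340 to 1390 CPM in KO-SD. In KO-TGF they were at 6250 to 6310, 3890 to 3940 and 1420 to 1470 CPM. Ren1 and Art3 had no count. Des, Myh11, Hopx and Sfrp2 stayed at or below 1.1 CPM, Pdgfra at or below 2.29 CPM and the mesangial integrin gene Itga8 below 4 CPM. Several defining markers of other glomerular cells were near 0: Tie1 and Cldn5 of endothelial cells had no count, and Nphs1 of podocytes and Cdh5 and Emcn of endothelial cells at most 2 counts in any KO library. Of the 20 macrophage markers, 13 stayed at or under 3 counts in every KO library, and their sum was 8.77 to 10.5 CPM in KO-SD and 2.78 to 3.32 CPM in KO-TGF, with Cd14 the highest in KO-SD. Other genes on the marker lists passed the expression limit, 12 of 20 for podocytes, 7 of 20 for tubular cells and 3 of 20 for endothelial cells, among them Wt1, Nes, Pax8 and Spp1, and the endothelial list reached at most 17.8 CPM for any gene in KO-SD and 13.9 CPM in KO-TGF. As these are bulk libraries, fewer cells of a kind and less RNA per cell cannot be told apart.

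TGF-β changed the KO cells broadly. Of 11530 genes tested, 4028 rose and 4512 fell at FDR <5%, which is 34.9% and 39.1% of the genes tested, and 2990 did neither. In what follows, rose and fell mean FDR <5% in the quasi-likelihood test of edgeR, adjusted over all 11530 genes, and a log2 change is the log2 fold change of KO-TGF against KO-SD. With fold change >2 in addition, 505 genes rose (4.38%) and 1056 fell (9.16%). The genes that rose more than 2-fold held 4.42% to 4.49% of the scaled reads of each KO-SD library and 13.1% to 13.2% of each KO-TGF library. Those that fell more than 2-fold went from 5.49% to 5.66% down to 1.94% to 1.97%. The median log2 fold change of all genes was -0.03. When libraries were scaled to their total counts instead of by TMM it was -0.23, and the calls beyond 2-fold were 353 higher and 1383 lower, so that the higher genes made up 20.3% of these calls and not 32.4%. Medians of gene lists given below are therefore read against the median of all genes. Counts of list members that rose or fell are read against the 34.9% and 39.1% of all genes. Counts beyond 2-fold are read against 4.38% and 9.16%.

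**Figure D1:**
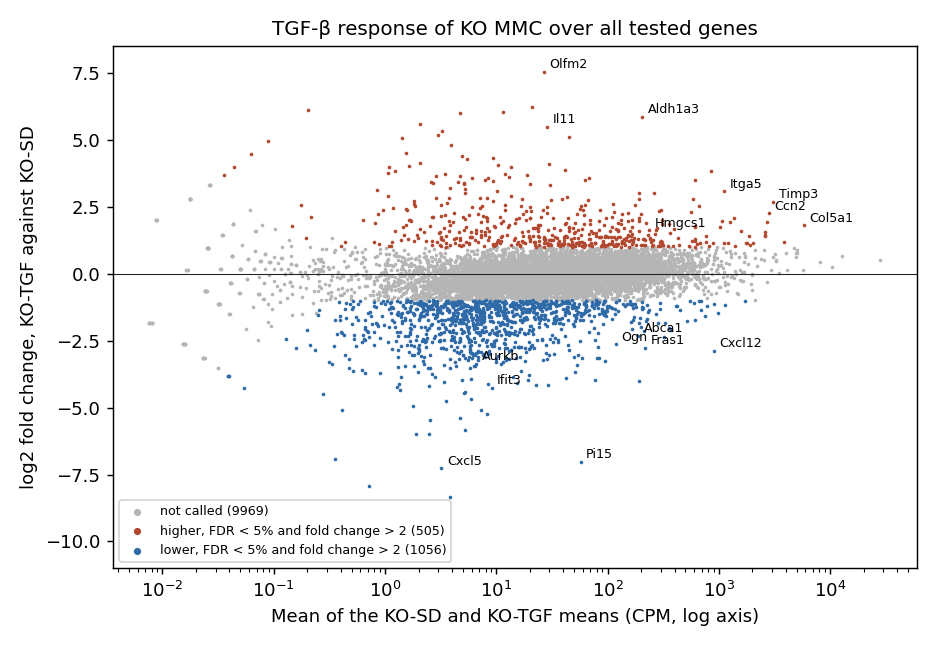
Each point is 1 of the 11530 genes tested, with the mean level in KO cells on the x axis (CPM, log axis) and the log2 fold change of KO-TGF against KO-SD on the y axis. Red points rose and blue points fell with FDR <5% and fold change >2, 505 and 1056 genes, and 16 genes described in the text are named.

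The steepest rises among genes that reached 5 CPM included genes that were almost silent in serum-depleted cells. Olfm2, an olfactomedin-domain protein, was 0.184, 0.338 and 0.321 CPM in KO-SD and 52.01, 53.3 and 53.8 CPM in KO-TGF, the largest positive change (log2 change 7.53, standard error 0.116, adjusted p = 1.28e-30). Cmah, which hydroxylates the sialic acid of cell surface glycans, was 0.322, 0.676 and 0.642 CPM in KO-SD and 41.7, 42.4 and 39.7 CPM in KO-TGF (log2 change 6.23). Aldh1a3, the enzyme that makes retinoic acid from retinal, lies on chromosome 7 from 66390892 to 66427477 of mm10. It was 6.75, 7.63 and 6.56 CPM in KO-SD and 392, 412 and 401 CPM in KO-TGF (log2 change 5.85, standard error 0.0489, adjusted p = 4.84e-37), and the KO-TGF libraries lay far above the KO-SD libraries with little spread. Il11, a cytokine of the interleukin-6 family with a known role in fibrosis, was 1.38, 1.303 and 1.05 CPM in KO-SD and 54.8, 55.5 and 56.97 CPM in KO-TGF (log2 change 5.48). Acsbg1, an acyl-CoA synthetase, went from 0.341 to 22.7 CPM and Prg4, which encodes the lubricant lubricin, from 0.884 to 17.9 CPM, as means of 3 libraries. Ucp2, a mitochondrial carrier, the bile acid receptor gene Gpbar1, the protease gene Ctsw and the hormone gene Fgf21 averaged between 0.139 and 0.266 CPM in KO-SD, close to the floor, and reached 9.33, 6.38, 5.796 and 7.54 CPM in KO-TGF. Their fold changes rest on few reads in KO-SD.

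Some of the deepest falls reached the floor of detection. Cxcl5, a neutrophil chemokine, fell at least 40.01-fold to a KO-TGF mean of 0.0357 CPM. Pi15, a secreted protease inhibitor of the CAP family, was 128, 104 and 109 CPM in KO-SD and 0.857, 0.642 and 1.104 CPM in KO-TGF (log2 change -7.03, standard error 0.117, adjusted p = 8.98e-30). Each of these genes was at 5 CPM or more in every KO-SD library and near 1 CPM or below in every KO-TGF library. Others among the 12 largest falls were Cacnb4, a calcium channel subunit (10.3 to 0.177 CPM), Slc5a12, a lactate transporter (9.28 to 0.212 CPM), Akr1c14, a steroid reductase with close relatives in its gene family (16.2 to 0.425 CPM), Aqp1, the water channel (6.804 to 0.248 CPM), and Steap4, a metalloreductase (9.78 to 0.443 CPM).

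By gain in read share, the response was led by matrix and adhesion genes. Among genes with fold change >2, the largest gains in mean CPM included those of Col5a1 (6400.0 CPM), Timp3 (4506), Ccn2 (3650.0), Itgb1 (3021), Tagln (2596), Fbn1 (2418), Tnc (2316), Itga5 (1758) and Inhba (1682). CPM is not divided by gene length, so this order is one of reads and not of molecules. The largest losses among such genes were those of the chemokine gene Cxcl12 (-1383 CPM), Cpe (-1168), Cyp1b1 (-918), Dag1 (-877), Antxr1 (-745), Fth1 (-683), Spp1 (-655), Itm2b (-618), C3 (-606) and Cp (-569). The rule that picked these genes took only genes in which the 3 KO-SD and the 3 KO-TGF libraries did not overlap.

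**Figure D2:**
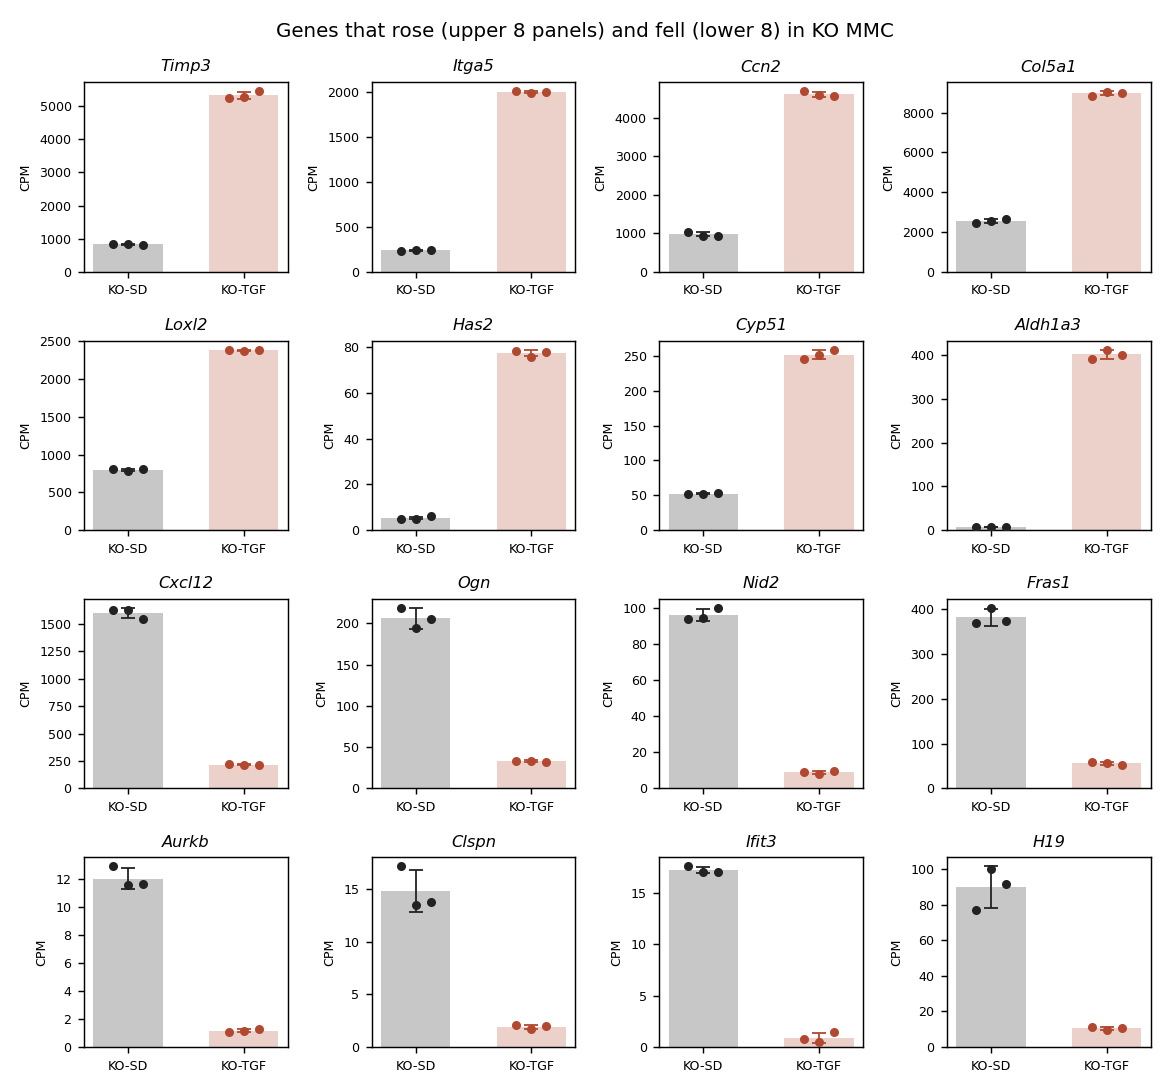
CPM of 16 genes in the 3 KO-SD and 3 KO-TGF libraries (points), with the mean as a bar and its SD (n = 3) as an error bar; each panel has its own y axis from 0. The 8 genes of the upper panels rose and the 8 of the lower panels fell, and in no panel do the libraries of the groups overlap.

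The TGF-β pathway itself was remodelled, with ligand and feedback genes up and a BMP branch down. Tgfb1 was 67.8, 72.1 and 70.95 CPM in KO-SD and 324, 334 and 337 CPM in KO-TGF (log2 change 2.24, standard error 0.0291, adjusted p = 2.05e-32), so that cells given the ligand carried more of its own transcript. Tgfb2 rose less, by a log2 fold change of 0.65. Of the 28 of 31 listed pathway genes that passed the expression limit of RPKM >1, 17 rose and 9 fell (3 and 2 with fold change >2), with a median log2 fold change of 0.17 that became -0.03 with scaling by library size alone. Among receptors, Tgfbr2 rose (0.48) and Tgfbr3, the betaglycan co-receptor, fell from 102 to 34.4 CPM (-1.56). Among feedback inhibitors, Pmepa1 was 201, 180.3 and 196 CPM in KO-SD and 948, 937 and 943 CPM in KO-TGF (log2 change 2.29, standard error 0.0308, adjusted p = 4.08e-32), Skil was 145, 129 and 133 CPM in KO-SD and 348, 332 and 344 CPM in KO-TGF (1.33 on the log2 scale) and Smad7 went from 58.9 to 107 CPM (0.87). Smad2, the receptor's substrate, averaged 117 CPM in KO-SD and in KO-TGF, a log2 change of 0.01 (adjusted p = 0.859).

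On the BMP and activin list, 6 of the 26 tested of 35 listed genes rose and 16 fell, with a median of -0.51. Inhba, the activin A subunit, was 575, 491 and 478 CPM in KO-SD and 2279, 2154 and 2159 CPM in KO-TGF (log2 change 2.09, standard error 0.0443, adjusted p = 3.56e-27). Fstl3, which binds and blocks activin, rose as well, from 17.4 to 98.6 CPM (2.51). Bmp4 was 96.3, 89.9 and 90.4 CPM in KO-SD and 34.1, 34.5 and 33.9 CPM in KO-TGF (log2 change -1.43), and Bmp6 fell from 31.5 to 12.4 CPM (-1.34). The BMP antagonist genes Grem1 and Chrdl1 fell from 6.33 to 1.38 CPM and from 27.8 to 4.19 CPM. Of the 4 ID genes, known BMP-SMAD targets, 3 fell, and Id2 was 17.5, 19.9 and 17.2 CPM in KO-SD and 2.303, 1.66 and 1.58 CPM in KO-TGF (log2 change -3.30, standard error 0.116, adjusted p = 1.83e-21). Smad9, a BMP-branch SMAD, also fell, from 10.6 to 1.99 CPM.

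Fibrillar collagen genes mostly rose, with type V collagen far ahead of type I. Of the 19 tested of 35 listed collagens other than type IV, 12 rose and 5 fell, 7 and 1 of them with fold change >2, and the median was 0.59 against -0.03 for all genes. With no limit on expression, which takes in 34 genes of the list, the median was -0.01. Their summed level was 27559 ± 867 CPM in KO-SD and 41833 ± 408 CPM in KO-TGF (SD, n = 3). Col5a3 was 95.3, 94.9 and 109 CPM in KO-SD and 1099, 1141 and 1146 CPM in KO-TGF (log2 change 3.50, standard error 0.0399, adjusted p = 8.26e-34). Col5a1, on chromosome 2 from 27886381 to 28039510 of mm10, was 2468, 2574 and 2676 CPM in KO-SD and 8862, 9059 and 8998 CPM in KO-TGF (log2 change 1.80, standard error 0.0226, adjusted p = 9.56e-33). Type V chains nucleate the collagen fibril, and their rise was much steeper than that of type I, where Col1a1 was 9351, 10107 and 10399 CPM in KO-SD and 15498, 15751 and 16107 CPM in KO-TGF (log2 change 0.67) and Col1a2 had a log2 fold change of 0.59. Not all collagens followed. Col14a1 fell from 8.35 to 0.924 CPM (-3.17), and Col12a1, like Col14a1 a FACIT collagen that decorates fibrils, was 2774, 2753 and 2802 CPM in KO-SD and 1426, 1398 and 1401 CPM in KO-TGF (log2 change -0.98, standard error 0.0210, adjusted p = 4.99e-27). Col11a1, a relative of type V, fell from 1824 to 1101 CPM (-0.73).

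Genes that fold and crosslink collagen mostly rose as well. Of 33 tested of 36 listed genes, 24 rose and 9 fell (median 0.54). The 5 lysyl oxidases, which crosslink collagen and elastin, all rose, 3 with fold change >2: Loxl2 was 810.5, 778 and 805 CPM in KO-SD and 2381, 2375 and 2388 CPM in KO-TGF (log2 change 1.58, standard error 0.0222, adjusted p = 1.31e-31), and Loxl4, Loxl1 and Lox had log2 changes of 1.26, 1.05 and 0.61. The procollagen C-proteinase gene Bmp1 rose from 358 to 723 CPM (1.02), while its relative Tll1 was 138, 123 and 128 CPM in KO-SD and 48.4, 48.5 and 51.3 CPM in KO-TGF (log2 change -1.39, standard error 0.0426, adjusted p = 5.05e-23). The N-proteinase genes Adamts2 and Adamts14 fell by 1.26 and 0.75 on the log2 scale. The proprotein convertase Pcsk5 rose from 6.03 to 30.6 CPM and the collagen prolyl 3-hydroxylase P3h2 fell from 7.04 to 1.36 CPM.

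The basement membrane changed in makeup rather than in one direction. On this list 10 of the 23 tested of 33 listed genes rose and 12 fell, and the median of -0.10 became 0.05 with a limit of CPM >1 in at least 3 libraries. The neighbouring genes Col4a1 and Col4a2, which form the common type IV collagen network, rose from 3657 to 6242 CPM and from 2705 to 3784 CPM (0.77 and 0.48). Col4a5 and Col4a6, a further head-to-head gene pair, on the X chromosome, fell from 824 to 381 CPM and from 27.1 to 8.49 CPM (-1.11 and -1.67). Nid2, a nidogen that links laminin to type IV collagen, was 94.1, 94.6 and 100.03 CPM in KO-SD and 9.37, 8.18 and 9.56 CPM in KO-TGF (log2 change -3.41, standard error 0.0564, adjusted p = 8.10e-30), and its relative Nid1 fell far less (-0.25). Fras1, a protein of the epithelial-mesenchymal basement membrane, was 368, 401 and 372 CPM in KO-SD and 58.2, 57.4 and 52.6 CPM in KO-TGF (log2 change -2.76, standard error 0.0459, adjusted p = 8.85e-30). On the rising side, Col15a1, Lama1, Smoc2 and Col18a1 had log2 changes of 2.11, 1.54, 1.35 and 1.09.

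Among matrix glycoproteins, adhesive and matricellular genes moved in both directions and the small leucine-rich proteoglycans mostly fell. Of the 21 tested adhesive and matricellular genes 12 rose and 8 fell, 4 and 5 of them with fold change >2, and with scaling by library size 9 rose and 10 fell. Ccn2, the connective tissue growth factor and a classic TGF-β target, was 1029, 941 and 939 CPM in KO-SD and 4694, 4592 and 4575 CPM in KO-TGF (log2 change 2.25, standard error 0.0263, adjusted p = 1.54e-33). Fn1, fibronectin, was 22981, 23113 and 23708 CPM in KO-SD and 32662, 32876 and 33051 CPM in KO-TGF (log2 change 0.50), and both its receptor subunits Itga5 and Itgb1 rose as well. Tnc, Ccn4, Cthrc1, Fbn1 and Vcan had log2 changes of 1.39, 1.91, 1.72, 1.46 and 1.07. On the falling side, Ccn3, a relative of Ccn2, and Mgp, an inhibitor of matrix calcification, had log2 changes of -3.85 and -1.66, and Spp1, osteopontin, one of -1.74. Of the 8 tested of 17 listed proteoglycans 6 fell, each with fold change >2, and 2 rose (median -1.61). Omd was 16.4, 12.5 and 13.5 CPM in KO-SD and 0.536, 0.428 and 0.263 CPM in KO-TGF (log2 change -5.10, standard error 0.197, adjusted p = 1.97e-20), Prelp 35.7, 35.04 and 38.5 CPM in KO-SD and 2.57, 1.93 and 2.42 CPM in KO-TGF (log2 change -3.98), and Ogn 218, 194 and 205 CPM in KO-SD and 33.7, 33.8 and 31.7 CPM in KO-TGF (log2 change -2.64). These genes encode secreted proteoglycans that bind collagen fibrils. Decorin, Dcn, went from 59.3 to 18.8 CPM (-1.65). Of the 11 tested elastic fibre genes 6 rose and 5 fell (4 and 6 with scaling by library size), with Fbln5, an organizer of elastic fibres, at 596, 619 and 613 CPM in KO-SD and 136, 137 and 152 CPM in KO-TGF (log2 change -2.11, standard error 0.0322, adjusted p = 1.02e-30). The list as a whole had 20 of 40 tested genes rising and 19 falling (15 and 22 with scaling by library size, median -0.13, and 0.07 without KO-SD replicate 1).

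Matrix proteases and their inhibitors moved in both directions. Timp3, a tissue inhibitor of metalloproteinases that binds to the matrix, was 849, 824 and 808 CPM in KO-SD and 5258, 5288 and 5452 CPM in KO-TGF (log2 change 2.69, standard error 0.0246, adjusted p = 3.65e-36) and Timp1 189, 203 and 195 CPM in KO-SD and 1109.5, 1124 and 1140.2 CPM in KO-TGF (log2 change 2.52), whereas Timp2 fell by 0.39 on the log2 scale. Mmp13 was 33.4, 30.2 and 25.1 CPM in KO-SD and 3.43, 2.99 and 3.73 CPM in KO-TGF (log2 change -3.12, standard error 0.116, adjusted p = 7.90e-21), Adamts1 537, 539.9 and 525 CPM in KO-SD and 108, 107 and 99.8 CPM in KO-TGF (log2 change -2.35), and Mmp3 went from 14.5 to 3.14 CPM. Mmp9, a gelatinase, went the other way: it was 0.413, 0.579 and 0.321 CPM in KO-SD and 8.84, 8.77 and 10.5 CPM in KO-TGF (log2 change 4.41, standard error 0.205, adjusted p = 2.39e-18). Of the 39 tested of 53 listed proteases and inhibitors, 15 rose and 19 fell (38.5% and 48.7%, against 34.9% and 39.1% of all genes). The 4 tested genes of TIMPs and RECK had 2 up and 2 down, 2 and 1 of them with fold change >2. The 14 tested ADAMTS genes had 6 up and 6 down, 4 and 4 with fold change >2.

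Among glycosaminoglycan genes the largest rise was that of a hyaluronan synthase. Has2, the main hyaluronan synthase of mesenchymal cells, was 4.78, 5.07 and 5.96 CPM in KO-SD and 78.5, 75.8 and 77.9 CPM in KO-TGF (log2 change 3.87, standard error 0.0684, adjusted p = 3.84e-29), and the hyaluronidase gene Hyal1 fell from 20.6 to 9.70 CPM. Xylt1, which starts chondroitin and heparan sulfate chains, was 7.44, 7.72 and 6.79 CPM in KO-SD and 28.9, 27.5 and 31.95 CPM in KO-TGF (log2 change 2.01), and Chsy1 and Ust, which extend and sulfate chondroitin chains, rose from 133 to 481 CPM and from 34.1 to 134 CPM. On the list 29 of 47 tested genes rose and 13 fell (median 0.26), which became 22 and 20 (median 0.05) with scaling by library size. Hmmr, listed as a hyaluronan receptor, is also a spindle protein and fell with the mitotic genes described below, from 25.1 to 4.31 CPM.

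The contractile apparatus rose in its actin arm. All 11 tested genes of actins, calponins, tropomyosins and their partners rose, 3 with fold change >2 (median 0.89). Acta2, smooth muscle actin, was 3321, 3228 and 3198 CPM in KO-SD and 6251, 6309.6 and 6304 CPM in KO-TGF (log2 change 0.95, standard error 0.0234, adjusted p = 1.73e-25). Tagln, Actg2 and Cnn1 had log2 changes of 1.57, 1.96 and 1.65, and Csrp2, a LIM protein of smooth muscle, was 43.04, 49.5 and 48.5 CPM in KO-SD and 219, 222 and 224 CPM in KO-TGF (log2 change 2.24, standard error 0.0385, adjusted p = 2.08e-29). The myosin genes were split: Myh9 rose (0.87) and Myh10 fell (-1.01), and Mylk, the kinase that phosphorylates myosin light chain, was 144, 151 and 137 CPM in KO-SD and 37.8, 41.1 and 37.9 CPM in KO-TGF (log2 change -1.89, standard error 0.0418, adjusted p = 1.18e-26). Over the whole list 24 of 34 tested of 40 listed genes rose and 8 fell, and the summed level was 18332 to 19056 CPM in KO-SD and 31833 to 31854 CPM in KO-TGF.

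Integrin subunits moved in both directions. Itga5, the α subunit of the fibronectin receptor, was 230.4, 239.7 and 238 CPM in KO-SD and 2004, 1986 and 1993 CPM in KO-TGF (log2 change 3.08, standard error 0.0287, adjusted p = 4.52e-36), and Itgb1 and Itgb3 rose from 2356 to 5377 CPM and from 52.01 to 209.7 CPM. Itga1, a collagen-binding subunit, was 364, 340.4 and 329 CPM in KO-SD and 102, 99.7 and 99.01 CPM in KO-TGF (log2 change -1.78, standard error 0.0345, adjusted p = 3.90e-28), and Itgb8, which activates latent TGF-β, fell from 20.1 to 7.36 CPM (-1.45). Of the 30 tested adhesion plaque genes 25 rose and 5 fell. Vcl and Tln1, vinculin and talin, had log2 changes of 0.44 and 0.46. On the list of YAP-TEAD factors and targets, 19 of 34 tested genes rose and 10 fell (14 and 14 with scaling by library size), with Dock5 (2.29), Ankrd1 (1.65) and Nuak2 (1.53) after Ccn2.

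Contractile and adhesion genes rose more often than they fell, 24 against 8 and 32 against 12, though integrin genes were split. The promoters of both lists were read for the CArG box. It is the site of serum response factor (SRF), a regulator of many contractile genes with its MRTF cofactors. The contractile list was written by hand and holds Srf, Mrtfa and Mrtfb, so its share below is not independent of how it was chosen. A promoter here is the 300 bases from 250 before to 50 after a gene start in RefSeq (GRCm38.p6, the assembly of mm10), and 9033 of the 11530 tested genes had at least 1 in the table used. A CArG box, on either strand, was in 7 of the 31 contractile genes with a promoter (22.6%), in 4 of 34 adhesion genes (11.8%) and in 1.63% of all tested genes with a promoter. Among these contractile genes 6 rose and 1 fell, against 24 and 8 of the 34 tested genes of the list. Among the adhesion genes with the box 2 rose and 2 fell, against 32 and 12 of the 45 tested. Windows are shown for the 3 contractile and 2 adhesion genes with the largest rises among these, outside a chromosome set aside from display. They were chosen after their values were seen. Each shows the box in capitals with 17 bases on each side, on the strand of the gene. Cnn2, calponin 2, is at chr10:79988527-79988570, Ldb3, a Z-line protein, at chr14:34588690-34588733 (minus strand), Srf itself at chr17:46556218-46556261 (minus strand), Fermt2, kindlin-2, at chr14:45530243-45530286 (minus strand) and Vcl at chr14:20929154-20929197.
Cnn2: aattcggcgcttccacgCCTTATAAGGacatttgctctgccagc
Ldb3: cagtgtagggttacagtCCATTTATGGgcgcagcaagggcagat
Srf: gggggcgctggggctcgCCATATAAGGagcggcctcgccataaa
Fermt2: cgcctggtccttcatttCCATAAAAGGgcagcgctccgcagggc
Vcl: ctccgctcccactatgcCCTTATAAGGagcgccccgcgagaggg
These 5 genes rose by log2 changes of 0.68, 0.61, 0.60, 0.70 and 0.44. A match is a description of the letters and not a measured binding site.

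Genes of the immediate-early class, which serum and growth factors induce within minutes, were mostly higher at 24 h. On this list 23 of 30 tested genes rose and 5 fell, with a median of 0.85. Klf4, Btg2, Klf2 and Fos were among those that fell, each by less than 2-fold. Fos, with a log2 change of -0.30, was the only AP-1 gene to fall. Egr2 was 10.6, 9.89 and 11.1 CPM in KO-SD and 124, 126 and 129 CPM in KO-TGF (log2 change 3.58, standard error 0.0499, adjusted p = 9.63e-32), Fosl1, an AP-1 subunit, 2.76, 2.99 and 2.66 CPM in KO-SD and 12.6, 12.8 and 11.7 CPM in KO-TGF (log2 change 2.14), and Dusp4, a phosphatase of MAP kinases, 8.91, 10.5 and 10.1 CPM in KO-SD and 65.9, 69.3 and 66.7 CPM in KO-TGF (log2 change 2.77). Among factors known from epithelial-mesenchymal transition, Snai1 rose from 4.31 to 14.8 CPM (1.78) and Snai2 fell from 39.4 to 26.7 CPM (-0.56).

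**Figure D3:**
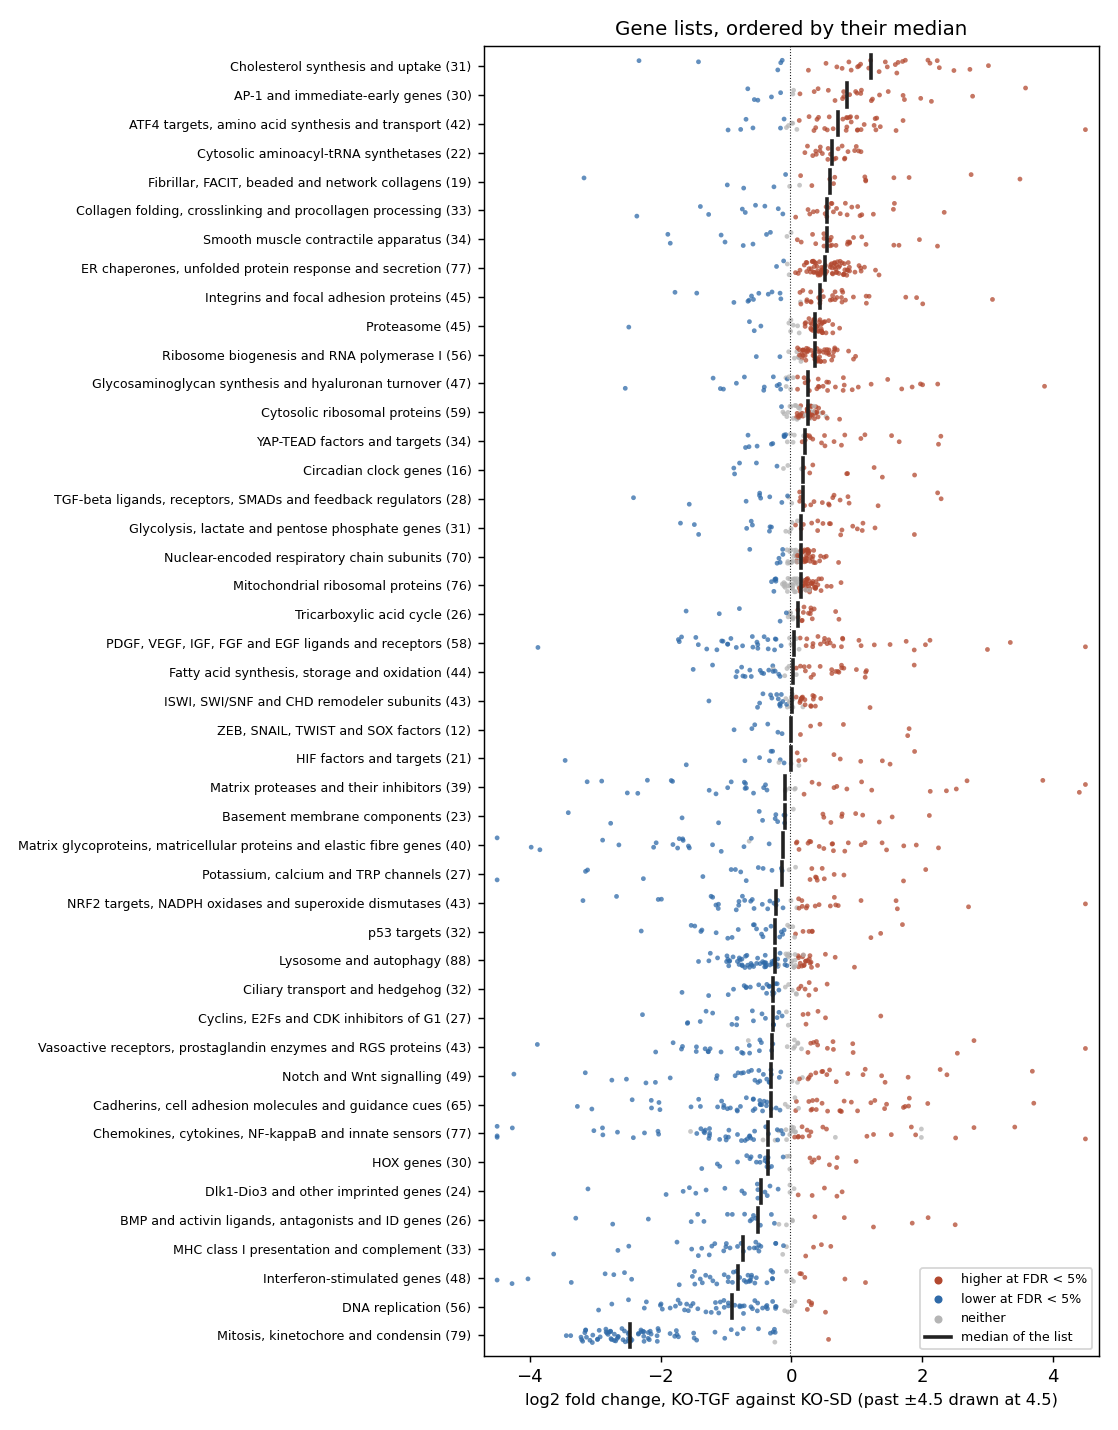
Each row is 1 of 45 gene lists with the number of its genes tested, and each point is a gene at its log2 fold change of KO-TGF against KO-SD (red, higher; blue, lower; grey, neither at FDR <5%). Black bars are list medians, from 1.21 for cholesterol synthesis and uptake at the top to -2.46 for mitosis at the bottom, and the dotted line is the median of all genes.

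Cell division genes had the lowest median of the 45 lists, and nearly all fell. Of the 79 tested of 84 listed genes of mitosis, kinetochores and condensin, 77 fell, 69 of them more than 2-fold, against 39.1% and 9.16% of all genes, and the median log2 fold change was -2.46. Their summed level was 2195 to 2241 CPM in KO-SD and 752 to 757 CPM in KO-TGF. Cyclin A2, Ccna2, was 51.1, 48.9 and 48.1 CPM in KO-SD and 6.05, 5.67 and 7.25 CPM in KO-TGF (log2 change -2.96, standard error 0.0779, adjusted p = 9.99e-25), its kinase gene Cdk1 34.9, 35.1 and 35.5 CPM in KO-SD and 7.55, 7.65 and 6.94 CPM in KO-TGF (log2 change -2.25), and Aurkb, the kinase of the chromosomal passenger complex, 12.9, 11.5 and 11.6 CPM in KO-SD and 1.07, 1.12 and 1.26 CPM in KO-TGF (log2 change -3.37). The groups were far apart for each. The spindle motor Kif15 and the kinetochore genes Ndc80 and Knl1 had log2 changes of -3.44, -3.22 and -3.21. Zwint, a kinetochore gene, was the exception on the rising side, from 86.6 to 129 CPM (log2 change 0.57, standard error 0.0349, adjusted p = 2.30e-15).

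DNA replication genes fell less uniformly: of 56 tested genes 47 fell, 26 more than 2-fold, and 5 rose, with a median of -0.91 and a summed level of 1277 to 1317 CPM in KO-SD and 867 to 882 CPM in KO-TGF. Clspn, a checkpoint adaptor at the fork, was 17.1, 13.5 and 13.8 CPM in KO-SD and 2.09, 1.71 and 1.94 CPM in KO-TGF (log2 change -2.95, standard error 0.136, adjusted p = 1.96e-18). Mcm10, Cdc6 and Pole, of origin licensing and the leading strand, had log2 changes of -2.75, -2.49 and -2.25, and Rrm2, the regulated subunit of ribonucleotide reductase, went from 45.5 to 11.6 CPM. Dut, of thymidylate synthesis, rose slightly (0.52). At the G1 level, Ccnd1 was 95.05, 98.1 and 93.3 CPM in KO-SD and 36.5, 38.9 and 33.7 CPM in KO-TGF (log2 change -1.39, standard error 0.0459, adjusted p = 3.47e-22), E2f7, Ccne1 and Ccne2 fell by 2.28, 1.58 and 1.59 on the log2 scale, and the inhibitor of CDK4 and CDK6 encoded by Cdkn2b, p15, was 55.6, 52.6 and 52.1 CPM in KO-SD and 137, 139 and 138 CPM in KO-TGF (log2 change 1.37, standard error 0.04003, adjusted p = 1.52e-23). Cdkn1a, p21, had means of 562 CPM in KO-SD and 637 CPM in KO-TGF, with a log2 change of 0.18 that became -0.0244 with scaling by library size.

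E2F factors drive the genes of DNA synthesis, and the promoters of this list were read for TTTGGCGC and TTTCCCGC on either strand. At least 1 was found in 13 of the 45 replication genes with a promoter (28.9%), in 7 of 68 mitosis genes (10.3%) and in 3.54% of all tested genes with a promoter. Of the replication genes with the letters 12 of 13 fell, close to the share of the whole list, where 47 of 56 tested genes fell (83.9%). The 3 with the largest falls, outside a chromosome set aside from display, are shown with the motif in capitals. It reads on the opposite strand in all 3. They are Cdc6 at chr11:98907996-98908037, and the helicase subunit genes Mcm5 at chr8:75109343-75109384 and Mcm3 at chr1:20820269-20820310 (minus strand).
Cdc6: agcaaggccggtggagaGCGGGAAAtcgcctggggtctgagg
Mcm5: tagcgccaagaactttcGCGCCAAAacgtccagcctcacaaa
Mcm3: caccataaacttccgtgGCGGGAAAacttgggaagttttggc
Their log2 fold changes were -2.49, -1.99 and -1.70.

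Cholesterol synthesis genes rose together. All 19 tested genes of the synthesis pathway rose, 15 of them more than 2-fold (median 1.59), against 34.9% and 4.38% of all genes. Hmgcs1, an early enzyme of the pathway, was 125, 111 and 111 CPM in KO-SD and 358, 347 and 357 CPM in KO-TGF (log2 change 1.61, standard error 0.0395, adjusted p = 1.57e-25), and Cyp51, which demethylates lanosterol, 51.96, 52.3 and 52.8 CPM in KO-SD and 245, 251 and 259 CPM in KO-TGF (log2 change 2.26). The KO-SD and KO-TGF libraries lay far apart for both. Of the 12 tested genes of regulators, uptake and efflux 7 rose and 5 fell. Among those that fell, Abca1, which exports cholesterol, was 333, 306 and 300.1 CPM in KO-SD and 64.9, 61.7 and 60.4 CPM in KO-TGF (log2 change -2.33, standard error 0.0382, adjusted p = 6.56e-30). Mylip, a sterol-induced ubiquitin ligase, went from 30.8 to 11.5 CPM (-1.42), and Scap and Nr1h2 fell as well. Summed, the 31 tested genes of the list were at 1355 to 1393 CPM in KO-SD and 2954 to 3059 CPM in KO-TGF. Fatty acid synthesis rose in part, with 11 of 16 tested genes up and 5 down. Scd1, a desaturase, was 51.9, 50.1 and 56.6 CPM in KO-SD and 186, 197 and 201 CPM in KO-TGF (log2 change 1.88), Scd2 and Acly had log2 changes of 1.14 and 0.996, and Cpt1a, the gate of fatty acid oxidation, fell from 137 to 59.3 CPM (-1.20).

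**Figure D4:**
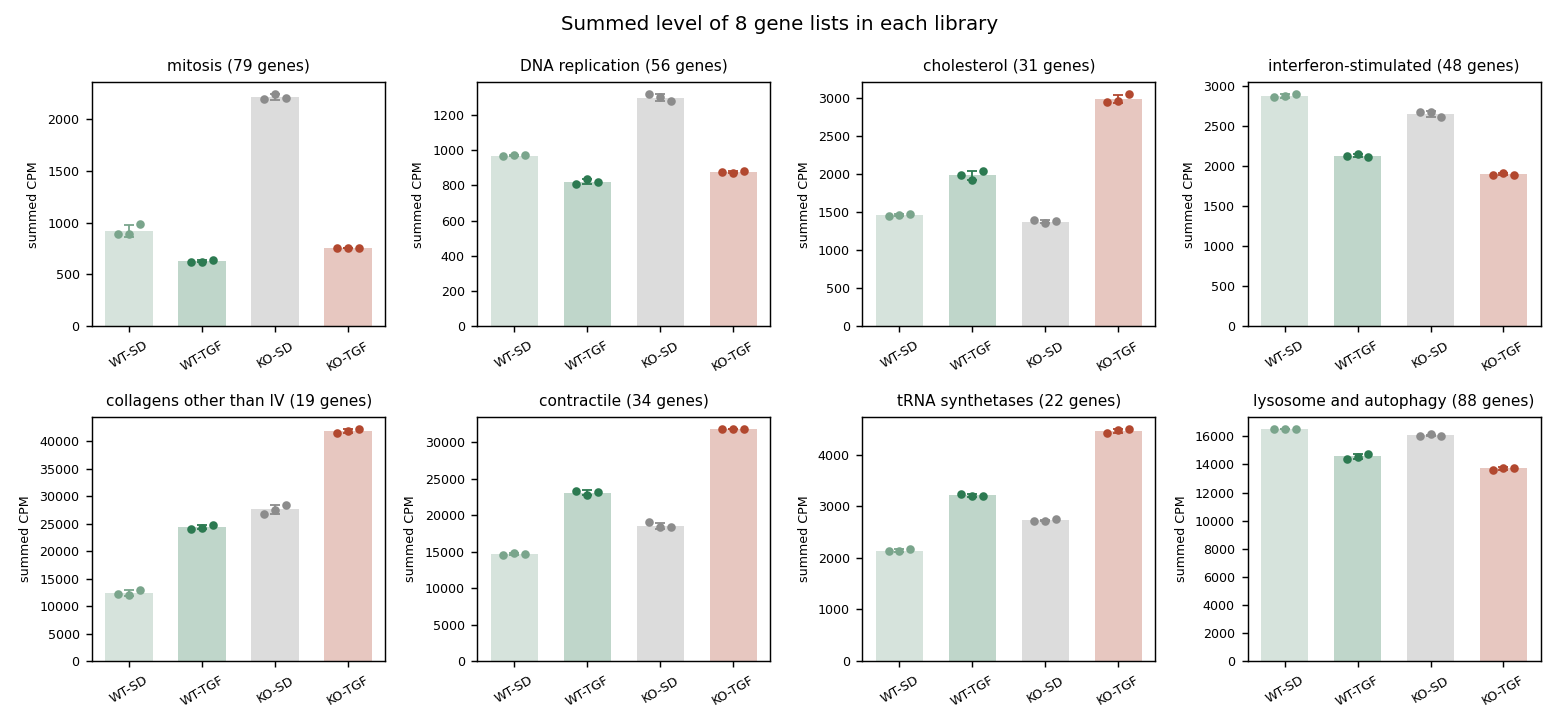
Summed CPM of the tested genes of 8 lists in each of the 12 libraries (points), with the group mean as a bar and its SD (n = 3) as an error bar; y axes start at 0 and differ between panels. In KO cells mitosis, DNA replication, interferon-stimulated and lysosomal genes were lower and the other 4 lists higher in every KO-TGF library than in every KO-SD library.

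Genes of protein synthesis and secretion rose in small steps and in large numbers. All 22 cytosolic aminoacyl-tRNA synthetase genes, which load amino acids on tRNA, rose (median 0.63), and Gars and Nars passed 2-fold (1.07 and 1.03). On the list of ATF4 targets, amino acid synthesis and transport, 31 of 42 tested genes rose and 6 fell (median 0.71). Atf4 was 236, 243 and 233 CPM in KO-SD and 423, 424 and 436 CPM in KO-TGF (log2 change 0.85, standard error 0.0265, adjusted p = 7.86e-23), and Slc7a11, the cystine transporter, Cth, which makes cysteine, and Psph, of serine synthesis, had log2 changes of 1.60, 1.71 and 1.36. Fgf21, named above, is on this list. Of 77 tested genes of ER chaperones, unfolded protein response and secretion 73 rose and 2 fell (median 0.52). Hspa5, BiP, was 726, 729 and 738 CPM in KO-SD and 1434, 1431 and 1445 CPM in KO-TGF (log2 change 0.97, standard error 0.0225, adjusted p = 3.52e-26), Xbp1 went from 92.8 to 195 CPM, Pdia5 from 30.6 to 77.6 CPM, and Creb3l2, a membrane-bound factor that raises secretory capacity for collagen, from 139.5 to 341 CPM. Of 56 tested ribosome biogenesis genes 48 rose (median 0.36), of 59 ribosomal protein genes 35 rose and 1 fell (0.25, but 6 rose and 11 fell with scaling by library size), and of 45 proteasome genes 35 rose and 4 fell (0.36). Ribosomal protein genes have many processed copies in the genome, and reads that fit several places were not counted, so their levels are uncertain. Respiratory chain subunits (39 of 70 up, 6 down, median 0.15) and mitochondrial ribosomal proteins (35 of 76 up, 6 down, 0.15) moved least, and both medians changed sign, to -0.06 and -0.06, with scaling by library size alone, when 10 rose and 27 fell and 14 rose and 25 fell.

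The promoters of these genes were read for TTGCATCA, the letters of the element that ATF4 binds with C/EBP partners, on either strand. It was in 4 of 15 synthetase genes with a promoter (26.7%) and 8 of 34 on the ATF4 list (23.5%), which holds known targets, against 0.675% of all tested genes with a promoter. For each list 3 windows are shown with the letters in capitals, those with the largest rises outside a chromosome set aside from display. They are first those of the isoleucine, threonine and tyrosine synthetase genes Iars at chr13:49682120-49682161, Tars at chr15:11399649-11399690 (minus strand) and Yars at chr4:129189889-129189930. Then follow Fgf21 at chr7:45615605-45615646 (minus strand), Slc7a11 at chr3:50443655-50443696 (minus strand) and Chac1, which degrades glutathione, at chr2:119351032-119351073.
Iars: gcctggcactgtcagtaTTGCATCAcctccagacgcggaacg
Tars: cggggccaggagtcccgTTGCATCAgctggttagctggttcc
Yars: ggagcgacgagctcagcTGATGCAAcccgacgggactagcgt
Fgf21: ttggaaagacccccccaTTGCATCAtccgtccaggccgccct
Slc7a11: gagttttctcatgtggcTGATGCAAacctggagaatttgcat
Chac1: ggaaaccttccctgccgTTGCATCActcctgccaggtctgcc
In Yars and Slc7a11 the letters read on the opposite strand. The 3 synthetase genes had log2 changes of 0.99, 0.97 and 0.82, and Chac1 one of 1.28.

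Glucose handling changed in selected genes. Slc2a1, the glucose transporter GLUT1, and Hk2 rose from 69.2 to 168 CPM and from 69.8 to 149 CPM. The lactate exporter gene Slc16a3 was 22.1, 22.5 and 20.3 CPM in KO-SD and 78.5, 80.3 and 80.5 CPM in KO-TGF (log2 change 1.88, standard error 0.0463, adjusted p = 1.76e-25), whereas its relative Slc16a1 fell from 65.9 to 23.6 CPM and Ldhb from 36.9 to 11.4 CPM. The 31 tested genes had 17 up and 9 down, and their median of 0.15 became -0.05 with scaling by library size alone, with 14 up and 14 down. On the list of HIF factors and targets 9 of 21 tested genes rose and 9 fell (42.9% each, against 34.9% and 39.1% of all genes). With scaling by library size 6 rose and 12 fell. Vegfa, Bhlhe40 and Ero1l rose (1.51, 1.89 and 1.06), with Epas1, HIF-2α, falling from 11.6 to 3.81 CPM.

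Interferon-stimulated genes fell. Of 48 tested of 75 listed genes 40 fell, 19 more than 2-fold, and 5 rose (median -0.81), with a summed level of 2607 to 2674 CPM in KO-SD and 1888 to 1913 CPM in KO-TGF. Ifit3, which has a near-identical copy that shares reads, was 17.6, 17.1 and 17.02 CPM in KO-SD and 0.803, 0.428 and 1.42 CPM in KO-TGF (log2 change -4.27, standard error 0.1501, adjusted p = 1.77e-21). Ifit2 was 36.8, 36.2 and 34.6 CPM in KO-SD and 5.95, 4.76 and 5.68 CPM in KO-TGF (log2 change -2.71). All 10 tested interferon-induced GTPase genes fell, 8 more than 2-fold, among them Gbp2 from 24.9 to 8.96 CPM. Irf1, a transcription factor of the response, fell by 0.65 on the log2 scale.

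Inflammatory genes split by class. Of the 17 tested of 27 listed chemokines 11 fell, 8 more than 2-fold, and 2 rose. Cxcl12, which holds leukocytes and stem cells in tissue niches and lies on chromosome 6 from 117168535 to 117181368 of mm10, was 1622, 1628 and 1549 CPM in KO-SD and 219, 218 and 214 CPM in KO-TGF (log2 change -2.88, standard error 0.0293, adjusted p = 4.65e-35). Cxcl1 was 104, 92.9 and 91.2 CPM in KO-SD and 12.8, 10.6 and 12.1 CPM in KO-TGF (log2 change -3.02), and Ccl7 went from 165 to 66.4 CPM. The adhesion molecules followed the chemokines: Vcam1 was 75.4, 81.2 and 72.01 CPM in KO-SD and 12.7, 11.5 and 11.9 CPM in KO-TGF (log2 change -2.66, standard error 0.0595, adjusted p = 1.58e-26) and Icam1 9.33, 8.49 and 10.04 CPM in KO-SD and 1.29, 1.604 and 2.31 CPM in KO-TGF (log2 change -2.42). Some cytokines and enzymes rose strongly instead. Il6 was 0.873, 0.772 and 0.642 CPM in KO-SD and 8.46, 8.13 and 8.04 CPM in KO-TGF (log2 change 3.42), and Ptgs2, the inducible cyclooxygenase COX-2, 158, 142 and 143 CPM in KO-SD and 1066, 1001 and 1003 CPM in KO-TGF (log2 change 2.79, standard error 0.04199, adjusted p = 6.69e-31). The NF-κB genes themselves moved little, 6 up and 9 down of 18 tested (33.3% and 50%, against 34.9% and 39.1% of all genes, median -0.06). Complement genes fell: of 15 tested of 26 listed genes 13 fell and none rose, with C3 at 1014, 1011 and 942 CPM in KO-SD and 384, 377 and 387 CPM in KO-TGF (log2 change -1.37, standard error 0.0278, adjusted p = 1.27e-27) and the C1 protease genes C1ra and C1s1, each with a near copy in the genome, down from 78.7 to 27.4 CPM and from 337 to 126 CPM. MHC class I presentation genes fell in 14 of 18 cases and rose in 4, the latter including Calr, Canx and Pdia3, which are also general ER chaperones.

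Lysosomal genes declined modestly and widely. Of 57 tested lysosomal genes 43 fell and 9 rose, 4 and 0 with fold change >2 (median -0.41), with Hexa, Sgsh and Ctsf at -1.26, -1.42 and -1.24, and Npc2, a cholesterol carrier of the lysosome, rising from 428 to 682 CPM. The 31 autophagy genes had 12 up and 10 down (38.7% and 32.3%, against 34.9% and 39.1% of all genes). With scaling by library size 3 were up and 18 down. Among redox genes Nox4, the NADPH oxidase of kidney cells, was 44.3, 41.6 and 37.9 CPM in KO-SD and 128, 129 and 124 CPM in KO-TGF (log2 change 1.62, standard error 0.0444, adjusted p = 2.70e-24), and Prdx6 rose from 133 to 279.6 CPM. NRF2 targets fell in 21 of 34 tested genes and rose in 12. Gstm1, a glutathione transferase of a family of close paralogs, was 38.04, 35.6 and 33.99 CPM in KO-SD and 5.68, 4.65 and 6.52 CPM in KO-TGF (log2 change -2.67, standard error 0.0779, adjusted p = 1.40e-23), and Fth1, ferritin heavy chain, 1251, 1246 and 1228 CPM in KO-SD and 563, 547 and 566 CPM in KO-TGF (log2 change -1.15).

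Growth factor and Wnt ligand genes moved in both directions. Hbegf, an EGF receptor ligand, was 61.1, 55.9 and 58.02 CPM in KO-SD and 465, 463 and 474 CPM in KO-TGF (log2 change 3.001, standard error 0.03198, adjusted p = 1.42e-34), Pdgfb, the growth factor that mesangial cells respond to through Pdgfrb, 3.26, 4.01 and 3.39 CPM in KO-SD and 34.8, 37.6 and 36.4 CPM in KO-TGF (log2 change 3.35, standard error 0.07702, adjusted p = 3.14e-26), and Fgf2 rose from 2.998 to 13.1 CPM. Vegfa was 188, 191 and 186 CPM in KO-SD and 544, 539 and 529 CPM in KO-TGF (log2 change 1.51), while its relatives Vegfb and Vegfd fell from 34.1 to 10.6 CPM and from 26.4 to 1.79 CPM. Igf1 was 2098, 1720.1 and 1761 CPM in KO-SD and 1153, 1101 and 1075 CPM in KO-TGF (log2 change -0.74). In the Wnt and Notch group, Wnt11 was 2.43, 2.27 and 3.35 CPM in KO-SD and 35.1, 32.2 and 36.9 CPM in KO-TGF (log2 change 3.69, standard error 0.0954, adjusted p = 6.70e-25), Wnt9a went from 19.2 to 100.2 CPM, the ligand gene Jag1 from 274 to 946 CPM, and the antagonist gene Dkk2 from 9.74 to 47.3 CPM. Opposite to these, the Wnt agonist gene Rspo2 was 149.8, 148 and 138 CPM in KO-SD and 16.5, 16.7 and 15.8 CPM in KO-TGF (log2 change -3.15, standard error 0.0557, adjusted p = 3.88e-29), and the antagonist genes Sfrp1 and Frzb fell from 27.5 to 4.099 CPM and from 8.08 to 1.403 CPM.

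On the vasoactive list 22 of 43 tested genes fell and 13 rose (51.2% and 30.2%, against 39.1% and 34.9% of all genes). Calcrl, the receptor for CGRP and adrenomedullin, was 91.2, 72.6 and 73.6 CPM in KO-SD and 5.57, 5.13 and 5.36 CPM in KO-TGF (log2 change -3.88, standard error 0.0892, adjusted p = 3.09e-26). Pde5a and Pde3a, phosphodiesterases that end cGMP and cAMP signals, were 286, 274 and 251 CPM in KO-SD and 66.1, 62.3 and 64.1 CPM in KO-TGF and 357, 343 and 335 CPM in KO-SD and 108, 107 and 108 CPM in KO-TGF (log2 changes -2.07 and -1.68). Rgs5 and Rgs4, which quench G protein signals in mural cells, fell from 129.8 to 47.4 CPM and from 160.1 to 76.1 CPM. The subunit genes of the BK potassium channel moved in opposite directions, with the pore gene Kcnma1 falling from 27.2 to 3.06 CPM and the smooth muscle β subunit gene Kcnmb1 rising from 2.01 to 8.36 CPM. Among guidance and adhesion genes, Sema3d was 193, 166 and 158 CPM in KO-SD and 20.4, 16.4 and 16.8 CPM in KO-TGF (log2 change -3.27, standard error 0.0666, adjusted p = 1.30e-27), and Sema3f and Cdh2 fell from 43.1 to 7.97 CPM and from 359 to 202 CPM. Ncam1 and Cadm1 rose from 468 to 1566 CPM and from 5.73 to 20.1 CPM.

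Most HOX and imprinted genes fell. Of 30 tested HOX genes 19 fell and 8 rose (63.3% and 26.7%, against 39.1% and 34.9% of all genes). With fold change >2, 3 fell and 0 rose, where 9.16% of all genes fell and 4.38% rose. Of 18 imprinted genes outside the Dlk1-Dio3 region 14 fell (77.8%), 6 of them more than 2-fold, and 3 rose (16.7%). H19, an imprinted long non-coding RNA, was 76.99, 100.3 and 91.8 CPM in KO-SD and 10.98, 9.68 and 10.5 CPM in KO-TGF (log2 change -3.11, standard error 0.195, adjusted p = 4.10e-15), its neighbour Igf2 fell from 10.9 to 3.97 CPM, and Peg3 was 864, 890.5 and 898 CPM in KO-SD and 442, 436 and 434 CPM in KO-TGF (log2 change -1.02). In the Dlk1-Dio3 region, where lncMGC also lies, Rian rose from 69.9 to 99.3 CPM (0.51) and Meg3 averaged 199 CPM in KO-SD and 196 CPM in KO-TGF (log2 change -0.02, adjusted p = 0.653). Of 16 clock genes 8 rose and 5 fell (50% and 31.2%), and 6 and 7 with scaling by library size. The clock output genes Dbp, Tef and Per3 fell (-0.87, -0.53 and -0.88) and the repressors Bhlhe40, Bhlhe41 and Nfil3 rose (1.89, 1.39 and 1.27). Of 43 chromatin remodeler genes 17 rose and 14 fell (39.5% and 32.6%), close to the 34.9% and 39.1% of all genes. With scaling by library size 8 rose and 26 fell. Among them Smarca5, the ISWI ATPase, rose from 61.7 to 78.7 CPM (0.35), Smarca2, a SWI/SNF ATPase, was 92.01, 86.2 and 92.3 CPM in KO-SD and 37.9, 38.9 and 36.3 CPM in KO-TGF (log2 change -1.26, standard error 0.0434, adjusted p = 1.05e-21), and Chd7 rose from 6.71 to 15.5 CPM. The p53 targets fell in 20 of 32 tested genes and rose in 8, with Pmaip1, NOXA, up from 130.2 to 423 CPM. Of the 13 tested mesangial markers 8 rose and 5 fell, 3 and 4 with fold change >2, and 4 rose and 6 fell with scaling by library size. Cspg4, NG2, was 94.95, 93.3 and 98.4 CPM in KO-SD and 484, 485 and 489 CPM in KO-TGF (log2 change 2.35, standard error 0.0298, adjusted p = 1.27e-32), and Rgs5, named above, fell by 1.45 on the log2 scale. Of 12 tested podocyte markers 4 rose and 7 fell, with Nes, an intermediate filament gene, at 1.96 and Wt1 at -1.11. Their summed level was 1470 to 1500 CPM in KO-SD and 2691 to 2718 CPM in KO-TGF. Most of this gain came from Nes, at 420 to 446 CPM in KO-SD and 1680 to 1690 CPM in KO-TGF. Of 7 tubular markers 1 rose and 5 fell, Pax8 and Spp1 among them (-1.28 and -1.74).

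Where the KO response differed from that of WT cells was tested as an interaction, the log2 response in KO minus that in WT, on the same 12 libraries. It was more positive in KO for 1000 genes (8.67%) and more negative for 1916 (16.6%) at FDR <5%, and neither for 8614. With scaling by library size these counts were 686 and 2648. Most of the response was in the same direction in both genotypes. Of the 505 genes that rose more than 2-fold in KO, 488 rose in WT at FDR <5%, 375 of them more than 2-fold, and 1 fell, and their interaction was positive for 178 and negative for 69. Of the 1056 genes that fell more than 2-fold in KO, 1001 fell in WT, 606 more than 2-fold, and 7 rose, and their interaction was negative for 631 and positive for 12. These genes were chosen by the KO response, so these counts and the smaller medians in WT (-1.09 against -1.61 for the falling genes, 1.34 against 1.44 for the rising genes) are descriptions. The 5 tested macrophage markers summed to 32.3 to 36.3 CPM in WT-SD and 15.9 to 20.3 CPM in WT-TGF, above the KO libraries (7.901 to 9.22 CPM in KO-SD and 2.19 to 2.303 CPM in KO-TGF), and their part in differences between KO and WT was not tested.

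**Figure D5:**
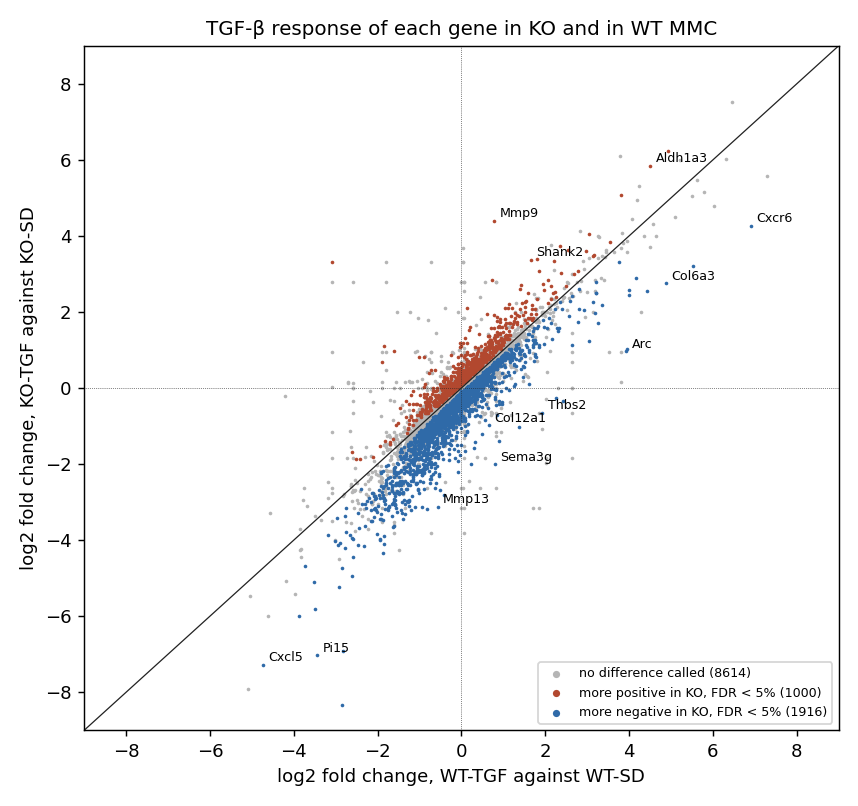
Log2 fold change with TGF-β of each of the 11530 tested genes in WT (x axis) and KO cells (y axis), coloured by the interaction test at FDR <5%; the solid line marks equal responses. The 1916 blue genes lie below the line and the 1000 red genes above it, and 12 genes are named.

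Cell division genes fell further in KO than in WT. Of 79 mitosis genes 70 had a more negative and 1 a more positive response in KO than in WT, and of 56 replication genes 40 and 2. The summed level of the mitosis genes was 2195 to 2241 CPM in KO-SD and 752 to 757 CPM in KO-TGF, and 887 to 983 CPM in WT-SD and 618 to 635 CPM in WT-TGF. KO-SD thus stood above the other 3 groups, and KO-TGF was closer to WT-TGF than KO-SD was to WT-SD (median log2 differences of 0.57 and 1.80). Aurkb was 2.77, 2.298 and 2.96 CPM in WT-SD and 0.567, 0.936 and 1.04 CPM in WT-TGF, a log2 response of -1.65 against -3.37 in KO (difference -1.72, standard error 0.305, adjusted p = 5.54e-05). Cholesterol genes went the other way, with 23 of 31 more positive in KO and 2 more negative. Their sums were 1448 to 1479.9 CPM in WT-SD and 1925 to 2041 CPM in WT-TGF. Hmgcs1 had a log2 response of 0.88 in WT and 1.61 in KO (difference 0.74, standard error 0.0564, adjusted p = 1.05e-11), and Cyp51 one of 1.53 and 2.26 (difference 0.74, standard error 0.0484, adjusted p = 2.69e-13).

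Matrix glycoproteins responded less positively in KO, 29 of 40 with a negative and 2 with a positive interaction. The list nevertheless started higher in KO and stayed higher after TGF-β. Its mean sum was 51579 (KO) against 33347 CPM (WT) with serum depletion alone, and 77836 against 59491 CPM with TGF-β. The median log2 difference of KO from WT was 0.56 without and 0.26 with TGF-β. Some matrix genes changed direction. Col12a1 was 1008, 1028 and 1043 CPM in WT-SD and 1598, 1649 and 1587 CPM in WT-TGF, so it rose in WT (log2 change 0.65) and fell in KO (difference -1.63, standard error 0.0297, adjusted p = 6.59e-27). In WT, Tll1 rose from 18.9 to 35.04 CPM, and in KO it fell from 129 to 49.4 CPM (difference -2.28, standard error 0.0713, adjusted p = 8.25e-21). Col6a3 rose from 8.03 to 54.3 CPM in KO and from the lower start of 0.958 to 28.4 CPM in WT, by 2.75 and 4.88 on the log2 scale (difference -2.13, standard error 0.264, adjusted p = 1.99e-07). Thbs2 was 0.864, 1.21 and 1.14 CPM in WT-SD and 3.17, 4.06 and 5.14 CPM in WT-TGF but 17.96, 6.27 and 4.49 CPM in KO-SD and 4.77, 4.71 and 8.93 CPM in KO-TGF (difference -2.57, standard error 0.578, adjusted p = 9.82e-04), and KO-SD replicate 1 was the highest of the 12 libraries. Without it the difference was -1.73. Spp1, osteopontin, and Cyp1b1 fell in both genotypes, Spp1 by 0.47 in WT and 1.74 in KO and Cyp1b1 by 0.27 and 1.46.

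Among single genes, Mmp9 had the largest positive difference of the genes that reached 5 CPM in any group: it was 1.27, 0.607 and 1.18 CPM in WT-SD and 1.65, 1.78 and 1.83 CPM in WT-TGF, against a rise to 8.77 CPM or more in every KO-TGF library (difference 3.62, standard error 0.366, adjusted p = 3.86e-09). Aldh1a3 rose to 402 CPM in KO and went from 20.8 to 472 CPM in WT (difference 1.34, standard error 0.0784, adjusted p = 2.33e-14). Fbxo32, a ubiquitin ligase subunit of muscle atrophy, rose from 62.9 to 243 CPM in KO, against 61.8 to 94.5 CPM in WT (difference 1.34, standard error 0.0454, adjusted p = 6.96e-20). Abcb1a, Shank2 and C430002N11Rik also had positive differences, of 2.12, 1.72 and 1.59, each from KO-SD levels below 1 CPM. Havcr1, with one of 1.83, stayed below 1 CPM in KO and fell in WT, and its difference missed the threshold when any of KO-SD replicate 3 and KO-TGF replicates 1 and 2 was left out. By the same limit of 5 CPM, the largest negative differences included those of Pi15 (-3.58), Arc (-2.97), Sema3g (-2.81), Cxcr6 (-2.64), Thbs2, Mmp13 (-2.56) and Cxcl5 (-2.54, and -1.99 and -1.98, past no threshold, without KO-TGF replicate 1 or 3). Arc and Cxcr6 rose in both genotypes, and the value for Cxcl5 depends on a KO-TGF group at the floor. Pi15 fell from 3.303 to 0.296 CPM in WT, from a start far below the 114 CPM of KO-SD. Sema3g rose from 12.9 to 22.5 CPM in WT and fell from 5.599 to 1.38 CPM in KO. Over all genes, 43 rose in KO and fell in WT and 102 fell in KO and rose in WT, each at FDR <5%.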

How the data were processed

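RNA-seq libraries of mouse MMC (KAPA mRNA HyperPrep, single-end reads) were aligned by the authors with TopHat to mm10, and reads were counted per gene with HTSeq-count in reverse-strand mode. The deposited files hold these raw counts, 1 file per library. Rows that name no gene (no feature, 10.3% to 13.4% of reads in KO libraries, and not unique, 11.3% to 11.7%) were left out. Depth limits precision to the floor of 3 counts given in the report.

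Genes with RPKM >1 in at least 1 of 12 libraries were tested (11530 of 18565 with a count), using GENCODE vM21 exon lengths, edgeR 4.0.16 with TMM (R 4.3.3), 1 mean per group over all 12 libraries and no covariates. P-values were adjusted by Benjamini-Hochberg. Means, SDs and levels are CPM. The fit recovered changes planted in counts simulated with its own estimates of spread. These were as many rises as falls, in a small share of the genes and away from the floor. The simulation therefore does not test the scaling of libraries in which most genes change, nor genes near the floor. Whether replicate numbers pair libraries was checked by the correlation of deviations from group means, which was 0.063, 0.023 and 0.026 for the KO pairs, so no block was used. Alternatives were library-size scaling, DESeq2 1.42.0, no filter, CPM >1 in at least 3 libraries, the 6 KO libraries alone, a replicate block, and each library left out.

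Named genes are those with the 12 largest log2 changes in each direction and the 10 largest CPM changes (mean of at least 5 CPM, no overlap), the first 2 of each role and up to 4 largest changes per direction in each list, and the 8 largest differences between KO and WT in each direction. Some genes that this rule names are not reported here. Genes with printed promoter windows were chosen after their values were seen. Genes on a chromosome set aside from display were passed over. The gene lists were chosen with earlier results of these data known. Promoters are from a RefSeq table.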

Additional observations from a re-analysis of the deposited data

Results flagged for a closer look

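Differences between the TGF-β responses of KO and WT cells, tested as an interaction in edgeR, were past FDR <5% in the positive direction for 1000 genes and in the negative direction for 1916. Of the genes described, the differences in log2 response (KO minus WT) were positive for Mmp9 (3.62), Abcb1a (2.12), Havcr1 (1.83), Shank2 (1.72), C430002N11Rik (1.59), Aldh1a3 (1.34), Fbxo32 (1.34), Cyp51 (0.74) and Hmgcs1 (0.74). They were negative for Pi15 (-3.58), Arc (-2.97), Sema3g (-2.81), Cxcr6 (-2.64), Thbs2 (-2.57), Mmp13 (-2.56), Cxcl5 (-2.54), Tll1 (-2.28), Col6a3 (-2.13), Aurkb (-1.72) and Col12a1 (-1.63). Groups of 3 libraries are too small for a test of single outlying libraries.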

How the results depend on the processing

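The counts of genes beyond 2-fold stayed within 1.5 times the reported 505 higher and 1056 lower under every alternative run, except for 1763 lower genes with no filter on low expression, which adds genes with few counts. Scaling by library size turned the list medians of TGF-β pathway, glycolysis, tricarboxylic acid cycle, respiratory chain, mitochondrial ribosome and clock genes to -0.0314, -0.0525, -0.101, -0.0564, -0.0589 and -0.0284, and the log2 changes of Cdkn1a and Smad2 to -0.0244 and -0.198. With no filter the medians of the list of collagens other than type IV and of matrix glycoproteins were -0.00614 and 0. With the CPM limit that of basement membrane genes was 0.0461. Leaving out 1 KO library at a time moved the median of matrix glycoproteins over -0.17 to 0.0653, positive only without KO-SD replicate 1, and the log2 changes of Thbs2 over -1.0 to 0.20 (positive only without KO-SD replicate 1), Meg3 over -0.088 to 0.0285 (and 0.000477 in the 6 KO libraries alone) and Smad2 over -0.00149 to 0.0377. List medians close to 0 changed sign as well. Scaling by library size turned those of fatty acid, growth factor and remodeler genes from 0.02, 0.04 and 0.01 to -0.184, -0.168 and -0.191, no filter turned the first and second of these to -0.0226 and -0.343, and the CPM limit the second to -0.0765. The medians of HIF and of ZEB, SNAIL, TWIST and SOX genes, at -0.00294 and -0.000269, were at 0 or above under several alternatives, up to 0.0446 and 0.153. The cause of these changes was not tested. The replicate block, whose numbers do not pair the libraries by the check made, gave 503 higher and 1052 lower genes, and 1090 and 2078 differences from WT. DESeq2 gave 515 and 1026, and 1019 and 1335, and the 6 KO libraries alone 519 and 1028. With the lists described over tested genes only, genes under the floor of detection are not covered, and no separate cultures are known to stand behind the 3 libraries of a group.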
